A study of Homo sapiens with 6 samples.

Results

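The genes described here encode the subunits of the proteasome and the factors that assemble it. They were taken as every gene of the count table whose symbol begins with PSMA, PSMB, PSMC, PSMD, PSME, PSMF or PSMG, which gave 49 of 19330 genes. One of these, PSMC3IP, encodes a protein of meiotic recombination and not a subunit, and it was left out of all counts (log2 fold change 0.52 ± 0.33 (SE), adjusted p = 0.337 in edgeR). The remaining 48 comprised 14 subunits of the 20S core, 3 immunoproteasome subunits, 2 isoforms of restricted tissues (PSMA8 of testis and PSMB11 of thymus), 6 ATPases and 11 non-ATPase subunits of the 19S particle, 5 activators or inhibitors and 7 assembly factors. PSMD5, PSMD9 and PSMD10 were placed with the assembly factors, since they act as chaperones of the 19S base despite their symbols.

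RNA was sequenced from K562 cells, an established human line of chronic myelogenous leukemia, transduced with pLentiCRISPRv2, a lentivirus that carries Cas9 and a sgRNA and confers puromycin resistance. Cells with sgRNAs against N6AMT1 (sgN6AMT1, 3 libraries) were compared with cells that carried control sgRNAs (sgCtrl, 3 libraries), and both were puromycin-selected and sampled on day 10 after infection by the labels. N6AMT1 is a methyltransferase whose known substrates include the translation release factor eRF1. The labels name OR11A1 and OR2M49 as control targets and 10 mg/ml puromycin, where the study's methods name OR2M4 and a lower dose. Both conditions are transduced populations rather than clones, and the sgRNA of each library is not given in the sources used here. The question addressed was whether loss of N6AMT1 changes nuclear transcripts.

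The sgCtrl libraries held 742470 to 866894 counts. The sgN6AMT1 libraries held 959319, 5526904 and 4062363 counts in replicates 1 to 3, so that replicates 2 and 3 were the deepest. For N6AMT1 itself, control replicates gave 6, 5 and 9 reads and depleted replicates 0, 18 and 16, too few to be tested. As cpm (counts scaled to the raw library total), sgCtrl replicates 1 to 3 had 8.08, 5.77 and 10.4. The sgN6AMT1 replicates 1 to 3 had 0, 3.26 and 3.94 cpm, each below all controls. A Cas9 cut need not lower a transcript. Of the 10 K562 markers, the fetal globins HBG1 and HBG2, near-identical genes that can share reads, had 2966 counts or more in every library. HBG1, HBG2 and the embryonic globin HBE1 rose in sgN6AMT1 cells (log2 fold changes 1.04, 1.05 and 0.89) and LMO2 fell (−1.01). The conditions overlapped for HBG1 and HBG2, but not for HBE1. In TMM-normalized cpm, HBG1 and HBG2 had 7873 and 7547 in sgCtrl replicate 3 and 7867 and 7538 in sgN6AMT1 replicate 1. The embryonic globin HBZ lay below all controls in each sgN6AMT1 library without passing the test (−0.39, edgeR adjusted p = 0.116). The other 5 markers did not pass either, and TAL1 came closest (1.02, edgeR adjusted p = 0.0504). EPCAM, a marker of epithelia, was also found in all libraries (104 to 644 counts). CD3E and MS4A1 of lymphocytes and ALB of liver had between 0 and 32 counts. The part of cell state in the results below was not tested.

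The proteasome degrades proteins that carry ubiquitin chains. Its 20S core is a barrel of 2 outer rings of alpha subunits (PSMA1 to PSMA7) and 2 inner rings of beta subunits (PSMB1 to PSMB7), of which PSMB5, PSMB6 and PSMB7 cut peptide bonds. The 19S particle binds ubiquitin chains and unfolds the substrate with a ring of ATPases (PSMC1 to PSMC6). In cells exposed to interferon, PSMB8, PSMB9 and PSMB10 replace PSMB5, PSMB6 and PSMB7 to form the immunoproteasome. Dedicated chaperones assemble the rings, PSMG1 with PSMG2 and PSMG3 with PSMG4. When proteasome activity is low, the transcription factor NFE2L1 raises most subunit genes together through antioxidant response elements in their promoters.

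The elements bound by NFE2L1 contain TGACNNNGC, where N is any base, and this motif was searched on both strands of the 250 bases before each RefSeq start. Of the 48 genes, 42 had RefSeq promoter entries (GRCh38.p14), and 13 of them (31%) held the motif, against 13.2% of all 27305 genes with an entry. Counted per promoter, the motif was in 25.5% of 51 promoters of these genes and in 10.9% of all 35116. CCAAT, the sequence bound by the NF-Y complex, was in 19 of the 42 genes (45.2%) and in 37% of all genes (both strands). The motifs can overlap only by a base at their ends. Windows of 61 bases around the motif are shown for PSMG1 and PSMC5, the only called genes with the motif, and for PSMD12 and PSMB3, which had the largest fold changes in each direction among the other genes with it. Each reads 5′ to 3′ along the gene's strand, and capitals mark the motif, which in PSMC5 lies on the opposite strand and so reads as its reverse complement.
PSMG1 (chr21:39183600-39183660, minus strand; motif 183 to 175 bases before the start): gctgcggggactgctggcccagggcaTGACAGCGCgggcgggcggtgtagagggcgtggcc
PSMC5 (chr17:63827638-63827698, plus strand; motif 57 to 49 bases before the start): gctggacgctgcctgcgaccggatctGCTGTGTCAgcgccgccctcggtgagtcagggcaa
PSMD12 (chr17:67366708-67366768, minus strand; motif 165 to 157 bases before the start): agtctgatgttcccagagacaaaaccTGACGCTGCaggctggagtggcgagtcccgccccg
PSMB3 (chr17:38752611-38752671, plus strand; motif 104 to 96 bases before the start): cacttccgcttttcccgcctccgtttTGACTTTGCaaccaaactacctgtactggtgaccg

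Transcripts of 45 of the 48 genes were counted in at least 1 sgCtrl library, and 44 had enough counts to be tested. To compare genes with each other, levels in sgCtrl cells were expressed as cpm per kb of transcript, where cpm is the gene's count relative to the library total after TMM scaling in edgeR. The 20S beta subunit PSMB1 was highest, at 553 ± 96 cpm per kb (SD, n = 3), followed by the beta subunits PSMB3 (442 ± 111) and PSMB4 (411 ± 76) and the alpha subunit PSMA7 (389 ± 20). The medians per group were 324 cpm per kb for the 20S beta subunits, 227 for the alpha subunits, 151 for the non-ATPase and 137 for the ATPase subunits of the 19S particle, 53.7 for activators and inhibitors, and 44.9 for assembly factors. The core was thus the most abundant at the RNA level, and subunits present in equal numbers in the particle spanned 6.59-fold among the beta subunits, 4.69-fold among the alpha subunits and 4.14-fold among the ATPases. At the low end stood PSMB10 (21.1 ± 3.8 cpm per kb), PSMG3 (15.3 ± 5.4) and PSMF1, an inhibitor of the core (6.70 ± 0.88). In this order, 40 of 44 pairs of neighbours had overlapping ranges, and the steps that did not overlap were those from PSMA7 to PSMA1, from PSMB7 to PSMD8, from PSMG3 to PSMF1 and from PSMF1 to PSMB9. The levels rest on 1 reference transcript per gene. The lowest beta, alpha and ATPase subunits, PSMB2, PSMA4 and PSMC1, have long reference transcripts (4426, 4378 and 4390 bases). Those of PSMD12 and PSMF1 are also long (4356 and 8154 bases). A shorter form in these cells would raise the values of these genes, and the spans within the beta, alpha and ATPase subunits depend on this choice of transcript. Before division by length, PSMA4 had 363 cpm in sgCtrl cells, above the 217 cpm of PSMA3.

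**Figure D1:**
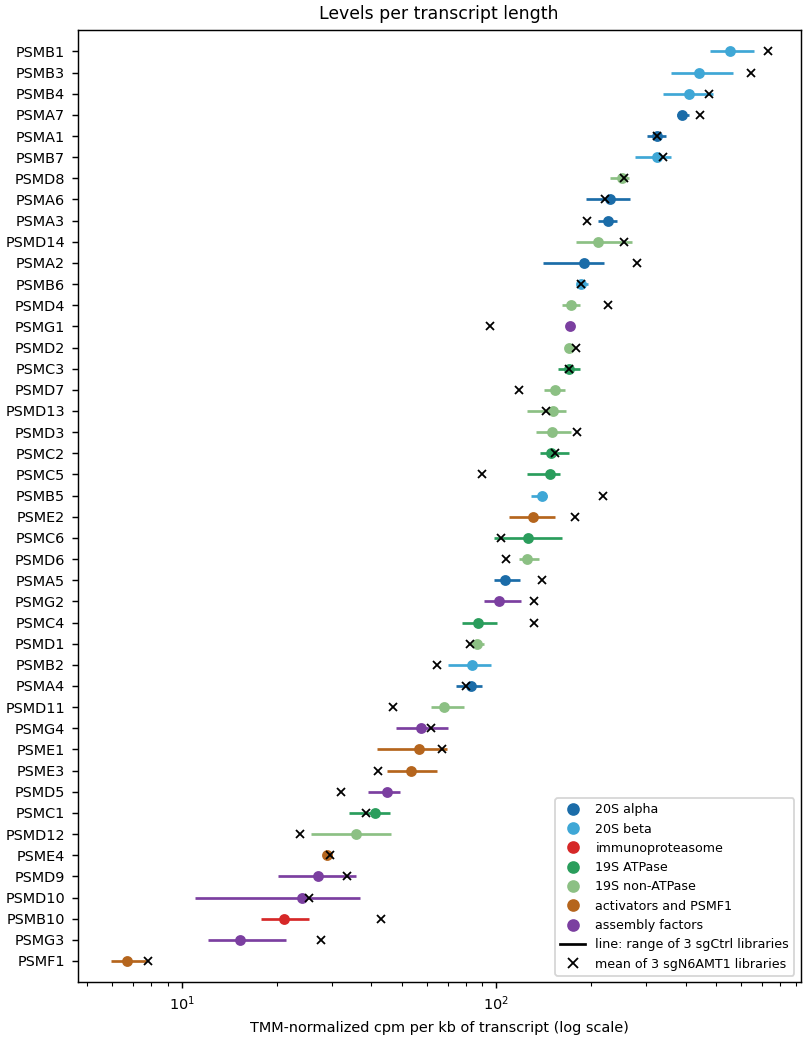
Level of each gene in cpm per kb of transcript on a log scale. Dots are means of the 3 sgCtrl libraries coloured by group, lines their range, and crosses means of the 3 sgN6AMT1 libraries; PSMB1 lies at the top at 553 and PSMF1 at the bottom at 6.70, and the crosses of PSMG1, PSMC5, PSMB5 and PSMB10 stand off their lines.

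In N6AMT1-depleted cells proteasome genes were changed in both directions. Of the 44 tested genes, 28 had positive and 16 negative log2 fold changes, with a median of 0.05 against 0.01 over all 8324 genes tested. With edgeR's quasi-likelihood test and Benjamini-Hochberg adjustment over all genes tested, PSMA2, PSMB5, PSMB10 and PSMC4 rose and PSMC5, PSMD11 and PSMG1 fell. These 7 calls are 15.9% of the tested members, where 9.85% of all genes tested were called (5.09% higher and 4.76% lower). Values of the conditions did not overlap in 13 members (29.5%), which is close to the share over all genes (29.2%). The unadjusted edgeR p was under 0.05 in 18 of 44 members and in 2185 of all 8324 genes (26.2%). The middle 50% of members spanned 0.43 on the log2 scale, and that of all genes 0.57. Over the members, the median of the lowest count in a library was 163.5. With DESeq2, 6 of the 48 genes were called, and 632 of all 9659 genes tested (6.54%).

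The calls depended on the libraries. All 7 called genes had every sgN6AMT1 library beyond every sgCtrl library, including sgN6AMT1 replicate 1, whose depth was close to that of the controls. Without sgN6AMT1 replicates 2 and 3 none of the members was called, and without sgCtrl replicate 1 or sgCtrl replicate 2 only PSMG1 was. PSMG1 was the only member called in each fit with a single library left out. In all 7 called genes, sgN6AMT1 replicate 3 lay farthest from the controls. Leaving out sgN6AMT1 replicate 2 left 4 calls and leaving out sgN6AMT1 replicate 3 left 2, PSMB5 and PSMG1.

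**Figure D2:**
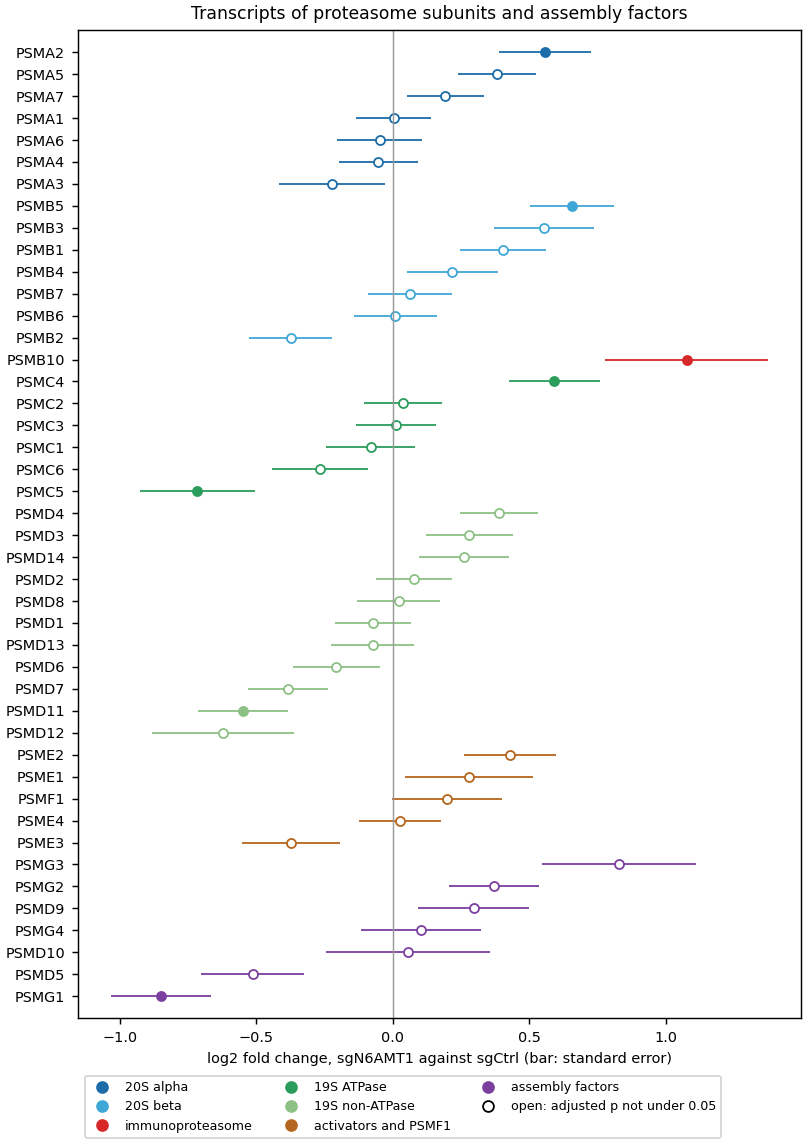
Log2 fold change of the 44 tested genes, sgN6AMT1 against sgCtrl, with standard errors, arranged and coloured by group. Filled dots mark the 7 genes with an edgeR adjusted p under 0.05; members of 1 particle lie on both sides of 0, from PSMG1 at −0.85 to PSMB10 at 1.08.

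Among the 20S core subunits, 2 of 14 rose, none fell, and the median log2 fold change was 0.13. The beta subunits had a median of 0.22, with 6 of 7 positive, and the alpha subunits of 0.00, with 4 of 7 positive. PSMB5 carries the chymotrypsin-like site, the main target of proteasome inhibitor drugs. It is encoded at chr14:23016543-23035230 on the minus strand (GRCh38, here and for all genes below). It had 134, 151 and 151 cpm in sgCtrl and 205, 224 and 256 cpm in sgN6AMT1 replicates 1 to 3, so that the lowest sgN6AMT1 library stood above all controls. It rose 1.58-fold (log2 fold change 0.66 ± 0.15, adjusted p = 0.0132). With 1 library left out its adjusted p ran up to 0.0675. The other catalytic subunits did not pass the test. PSMB6, of the caspase-like site, had means of 153 ± 7 and 153 ± 11 cpm (SD, n = 3 each; log2 fold change 0.01 ± 0.15, adjusted p = 0.974). PSMB7, of the trypsin-like site, had 319 ± 42 and 335 ± 45 cpm (log2 fold change 0.06 ± 0.15, adjusted p = 0.841). The signs for PSMB6 and PSMB7 turned in several alternative analyses and are not read as a direction.

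PSMA2, an alpha-ring subunit (chr7:42916828-42932185, minus strand), had 202, 300 and 315 cpm in sgCtrl and 362, 386 and 453 cpm in sgN6AMT1 libraries. The groups did not overlap, and sgCtrl replicate 1 was the lowest by a wide margin. The gene rose 1.47-fold (log2 fold change 0.56 ± 0.17, adjusted p = 0.0429), and the call was lost in 4 of 6 fits with 1 library left out. Its exons share 1445 bases with a readthrough gene on the same strand, and 3 pseudogenes carry its name, so that the counts of this locus are uncertain. At the lower end of the alpha ring, PSMA3 had 217 ± 15 cpm in sgCtrl and 185 ± 58 in sgN6AMT1 cells (log2 fold change −0.22 ± 0.19, adjusted p = 0.503). At the lower end of the beta ring, PSMB2 had 371 ± 58 and 286 ± 28 cpm (log2 fold change −0.37 ± 0.15, adjusted p = 0.126). Neither passed the test.

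The immunoproteasome genes were scarce. PSMB8 had 0 counts in all sgCtrl libraries, which allows up to 4.04, 3.46 and 3.46 cpm in replicates 1 to 3. In sgN6AMT1 replicates 1 to 3 it had 2, 0 and 5 counts. PSMB9 had 0, 0 and 1 counts and then 0, 9 and 3. In sgN6AMT1 replicate 2, the deepest library, the 9 PSMB9 counts correspond to 1.63 cpm (95% Wilson interval 0.857 to 3.10), which lies within the limit set by the 0 counts of the controls. Such limits and intervals cover counting error only. The depth therefore cannot show a difference for either gene, and no ratio to PSMB5 or PSMB6 was formed. PSMA8 and PSMB11 had 0 counts in all 6 libraries; in sgN6AMT1 replicate 2 this allows up to 0.543 cpm.

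PSMB10 (chr16:67934506-67936864, minus strand) was the exception among them, since it was expressed in every library. It had 17.5, 19.6 and 24.8 cpm in sgCtrl and 28.5, 40.3 and 57.3 cpm in sgN6AMT1 libraries, with each sgN6AMT1 value above all controls and the highest in replicate 3. It rose 2.11-fold (log2 fold change 1.08 ± 0.30, adjusted p = 0.0289), the largest increase of any member. DESeq2 did not call it (adjusted p = 0.0582), nor did the fit corrected for transcript GC content and length (log2 fold change 0.80, adjusted p = 0.0606), and 4 of 6 fits with 1 library left out lost the call. Against its constitutive counterpart PSMB7, which needs no scaling between libraries, PSMB10 had 6.44, 5.56 and 7.47 counts per 100 in sgCtrl and 7.54, 11.9 and 19.9 per 100 in sgN6AMT1 libraries. The lowest sgN6AMT1 ratio stood just above the highest control. The mean log2 ratio went from −3.92 ± 0.21 to −3.03 ± 0.69 (SD, n = 3 each; two-sided exact permutation p = 0.1, the smallest that 3 against 3 libraries allow). With 1 rather than 0.5 added to each count the ratios overlapped (exact permutation p = 0.2), and the difference of 0.88 became 0.53 without sgN6AMT1 replicate 3. PSMB10 shares 640 exonic bases with another annotated gene on the same strand, which limits how far its reads can be assigned.

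**Figure D3:**
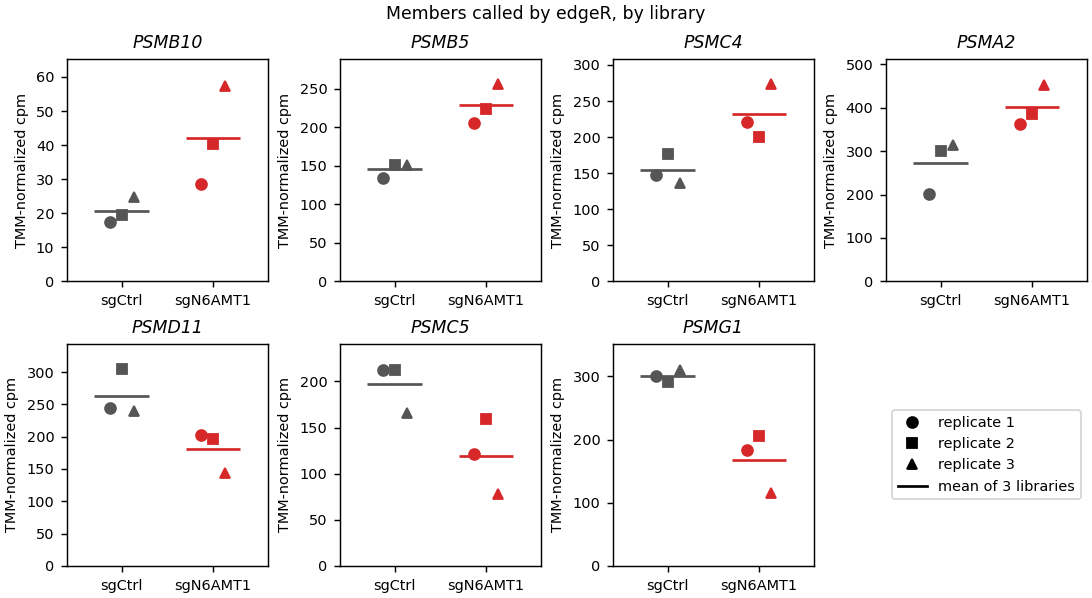
TMM-normalized cpm of the 7 called members in each of the 6 libraries, with axes from 0. Symbols give the replicate and lines the mean of 3 libraries; the conditions do not overlap in any panel, and sgN6AMT1 replicate 3 (triangle) lies farthest from the controls in all 7.

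In the 19S particle, 1 of 17 genes rose and 2 fell, with a median log2 fold change of −0.07. The called ATPases moved in opposite directions, although the 6 ATPases form 1 ring in equal numbers. PSMC4 (chr19:39971165-39981764, plus strand) had 148, 177 and 137 cpm in sgCtrl and 220, 201 and 273 cpm in sgN6AMT1 libraries. It rose 1.51-fold (log2 fold change 0.59 ± 0.17, adjusted p = 0.0315), and the call was lost after the GC and length correction (adjusted p = 0.0564). PSMC5 (chr17:63827152-63832026, plus strand) had 212, 212 and 166 cpm in sgCtrl and then 121, 159 and 78.4 cpm, each sgN6AMT1 value below all controls but replicate 2 only narrowly. It fell to 0.609 of the control level (log2 fold change −0.72 ± 0.21, adjusted p = 0.0394). In sgCtrl libraries PSMC4 had 69.6, 83.2 and 82.3 counts per 100 of PSMC5, and in sgN6AMT1 libraries 182, 126 and 349, without overlap (two-sided exact permutation p = 0.1, the smallest possible). This pair was chosen for its opposite changes, so that the ratio is a description and its p is no support. PSMC5 shares 655 exonic bases with FTSJ3 on the opposite strand, and the libraries were stranded but use of the strand in counting is not given in the sources used here. The call was lost in 3 of 6 fits with 1 library left out for PSMC5 and in 4 for PSMC4, and for PSMC5 also with both deep libraries thinned (adjusted p = 0.0658). The other 4 ATPases had log2 fold changes between −0.27 and 0.04, and none passed the test.

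Of the 11 non-ATPase subunits, only PSMD11 passed. PSMD11 is a scaffold subunit of the lid (chr17:32444379-32483319, plus strand). It had 245, 305 and 239 cpm in sgCtrl and 202, 196 and 144 cpm in sgN6AMT1 libraries, a fall to 0.684 of the control level (log2 fold change −0.55 ± 0.17, adjusted p = 0.0438), and 5 of 6 fits with 1 library left out lost the call. It was also lost with both deep libraries thinned (adjusted p = 0.0824) and with at least 10 counts required in every library (adjusted p = 0.0520). PSMD12, another lid subunit, had the lowest log2 fold change of the group but varied widely, at 156, 201 and 112 cpm against 128, 126 and 56.6 cpm. Its conditions overlapped and it did not pass the test (log2 fold change −0.62 ± 0.26, adjusted p = 0.134). At the upper end stood PSMD4, a ubiquitin receptor, at 243, 213 and 229 cpm against 316, 293 and 289 cpm. Its conditions did not overlap, yet the adjusted p was 0.0879 (log2 fold change 0.39 ± 0.14).

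None of the 5 activators and inhibitors passed the test, and their median log2 fold change was 0.20. PSME2, a subunit of the interferon-induced PA28 cap, had 87.3, 122 and 103 cpm in sgCtrl and 150, 137 and 137 cpm in sgN6AMT1 libraries, without overlap (log2 fold change 0.43 ± 0.17, adjusted p = 0.112). Reads of PSME2 may be shared with 6 pseudogenes named after it. PSME3, which forms the nuclear cap, had 171 ± 32 and 134 ± 25 cpm (log2 fold change −0.37 ± 0.18, adjusted p = 0.192). PSME1 and PSME2 form 1 ring, and their log2 count ratio was −0.94 ± 0.29 in sgCtrl and −1.16 ± 0.46 in sgN6AMT1 cells (exact permutation p = 0.6, two-sided; the sign of the difference turned without sgN6AMT1 replicate 1).

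The member with the lowest adjusted p was an assembly factor. PSMG1 (chr21:39174769-39183488, minus strand), a chaperone of alpha-ring assembly, had 301, 292 and 310 cpm in sgCtrl and 183, 205 and 115 cpm in sgN6AMT1 libraries. The controls lay close together, and the highest sgN6AMT1 library was well below them. The gene fell to 0.555 of the control level (log2 fold change −0.85 ± 0.18, adjusted p = 0.00871). With 1 library left out, its log2 fold change ran from −1.04 to −0.62 and its adjusted p from 0.00512 to 0.0452. Without both deep libraries the value was −0.70 (adjusted p = 0.131). PSMG2, with which PSMG1 forms a dimer, had 101, 98.1 and 129 cpm and then 143, 133 and 148 cpm, which did not pass the test (log2 fold change 0.37 ± 0.17, adjusted p = 0.162). The sgCtrl libraries thus held 299, 298 and 241 PSMG1 counts per 100 of PSMG2, and the sgN6AMT1 libraries 128, 154 and 77.7. The mean log2 ratio was 1.47 ± 0.18 and 0.20 ± 0.51 (SD, n = 3 each), without overlap and at the smallest exact permutation p of 0.1 (two-sided).

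PSMG3, of the second chaperone dimer, had the highest log2 fold change of the assembly factors. It had 17.5, 17.3 and 30.7 cpm in sgCtrl and 43.2, 33.6 and 41.9 cpm in sgN6AMT1 libraries, which did not overlap (log2 fold change 0.83 ± 0.28, adjusted p = 0.0688). Its counts in the sgCtrl libraries began at 13, and it did not pass the test. Relative to its partner PSMG4, the log2 ratio was −1.06 ± 0.69 and −0.30 ± 0.18 (exact permutation p = 0.2, two-sided), a difference of 0.76 that became 0.48 without sgCtrl replicate 1 and 1.14 without sgCtrl replicate 3. The ratios of PSMG1 to PSMG2, of PSMG3 to PSMG4, of PSME1 to PSME2, of PSMC4 to PSMC5 and of the particles below were chosen after seeing the data, and with PSMB10 to PSMB7 they make 6 such comparisons. None of the 6 can reach 0.05.

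As a share of all counts, the groups of the proteasome differed by small amounts between the conditions. All 48 genes together took 1.03% ± 0.04 of counts in sgCtrl and 1.07% ± 0.03 in sgN6AMT1 libraries (SD, n = 3 each; two-sided exact permutation p = 0.2). With the 13 mt-DNA-encoded genes removed from the total, this difference of 0.0371 percentage points became 0.00245 (exact permutation p = 0.9), and it was 0.0208 without sgCtrl replicate 1 and 0.0597 without sgCtrl replicate 3. The 20S core took 0.422%, 0.427% and 0.478% in sgCtrl and 0.477%, 0.504% and 0.515% in sgN6AMT1 libraries. Replicate 3 of sgCtrl thus met replicate 1 of sgN6AMT1 (exact permutation p = 0.2). The 19S particle took 0.457% ± 0.009 and 0.445% ± 0.015 (exact permutation p = 0.2). Its difference of −0.0119 percentage points became −0.0276 without mt-DNA-encoded genes in the total (exact permutation p = 0.1), −0.00477 without sgN6AMT1 replicate 1 and −0.0193 without sgN6AMT1 replicate 2. Activators with PSMF1 took 0.0591% and 0.0605% (exact permutation p = 0.7). Assembly factors took 0.0733% and 0.0622%, without overlap (exact permutation p = 0.1). PSMG1 held 224 of 530, 253 of 617 and 263 of 671 of their counts in sgCtrl libraries. In sgN6AMT1 libraries it held 174 of 645, 1123 of 3595 and 447 of 2204. By log2 fold change, 5 of the 7 assembly factors were positive and 2 negative, with a median of 0.10. The lower share is therefore not read as a fall of the whole group. The tests of shares were two-sided, over 4 groups and their total, and none can pass the threshold. Set against each other within a library, the 20S core had 94.5, 92.4 and 103 counts per 100 counts of the 19S particle in sgCtrl and 111, 110 and 116 in sgN6AMT1 libraries. These did not overlap, and the log2 ratio differed by 0.21 (exact permutation p = 0.1, two-sided). The difference kept its sign with each library left out, between 0.18 and 0.26. After the GC and length correction, the median log2 fold changes were 0.04 for the 20S core and −0.10 for the 19S particle.

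**Figure D4:**
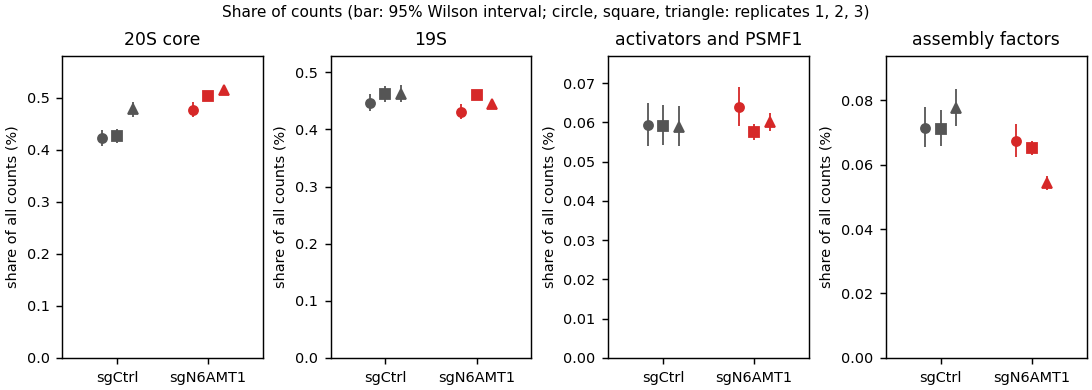
Share of all counts taken by the 20S core, the 19S particle, activators with PSMF1, and assembly factors in each library, with 95% Wilson intervals and axes from 0. The 20S shares are higher in sgN6AMT1 libraries except that sgCtrl replicate 3 (0.478%) meets sgN6AMT1 replicate 1 (0.477%). The assembly factor shares do not overlap, although 5 of these 7 genes have positive log2 fold changes.

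Fold changes went with the base composition of the transcripts and with their length. Across the 44 tested genes, Pearson's r between log2 fold change and GC content was 0.46 and Spearman's rho 0.42, a description across genes that share the same 6 libraries. Over the 8160 genes tested that had a GC value, r was 0.23, and the median log2 fold change went from −0.14 to 0.19 between the GC-poorest and the GC-richest of 5 groups of equal size. PSMB10 has the highest GC content of the tested members (61.7%) and PSMC6 the lowest (36.4%). PSMG1 (42.1%) and PSMA2 (39.5%) moved in opposite directions at similar content. After correction for GC content and length, PSMA2, PSMB5, PSMC5, PSMD11 and PSMG1 were still called, PSMA5 was added, and PSMB10 and PSMC4 were not called. Pearson's r between log2 fold change and log2 transcript length was −0.36 across the tested members and −0.16 over the genes with a GC value. The correction took GC content and length together and so does not separate them. The share of either in these changes was not tested otherwise.

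**Figure D5:**
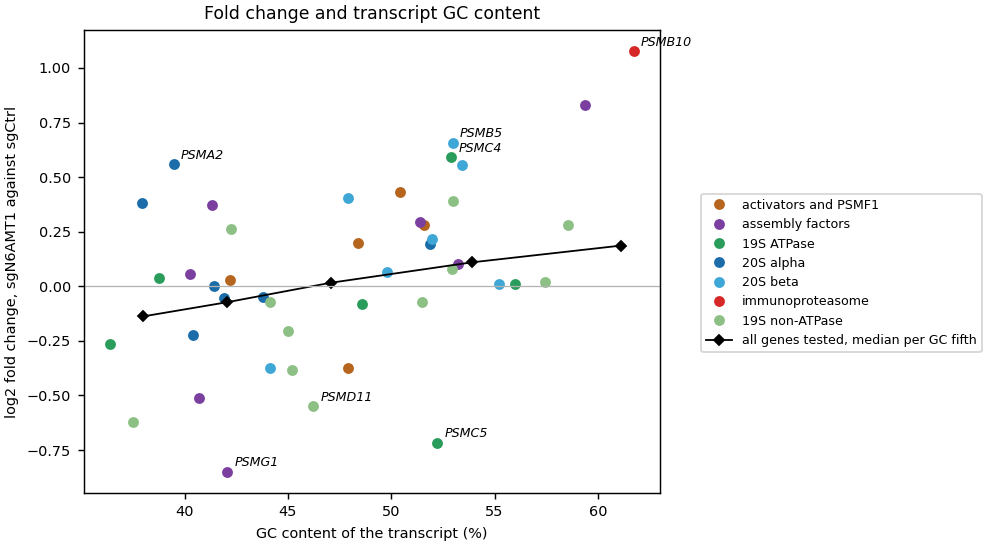
Log2 fold change of the 44 tested genes against the GC content of their reference transcript, with the called genes named. Diamonds join the medians of all genes tested in 5 groups by GC content (−0.14 to 0.19); PSMB10 stands at the upper right, and PSMC5 and PSMG1 lie far below the line.

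Genes that act around the proteasome were taken from a list of 53, of which 51 were matched, 42 were tested and 4 were called (9.52%, against 9.85% of all genes tested). UBB, a polyubiquitin gene, rose. It had 645, 734 and 738 cpm in sgCtrl and 961, 961 and 1142 cpm in sgN6AMT1 libraries (log2 fold change 0.53 ± 0.15, adjusted p = 0.0299). The call was lost in 4 of 6 fits with 1 library left out, with both deep libraries thinned (adjusted p = 0.0761) and with the GC and length correction (adjusted p = 0.0536). Of the shuttle factors, the unfoldases around VCP and the factors associated with the particle, none of the 5, 8 and 10 tested was called.

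The transcription factor NFE2L1 did not pass the test, at 95.4, 83.1 and 69.6 cpm in sgCtrl and 89.6, 99.5 and 76.1 cpm in sgN6AMT1 libraries (log2 fold change 0.10 ± 0.19, adjusted p = 0.787; the sign turned with sgCtrl replicate 3 or sgN6AMT1 replicate 2 left out). The protein is regulated by its cleavage and release from the endoplasmic reticulum, which RNA does not measure. Of the 12 tested members with TGACNNNGC before their start, 7 had positive and 5 negative fold changes and the median was 0.15, against 0.02 in the 26 tested members with an entry and no motif. NFYA, a subunit of NF-Y, had 44.3, 16.2 and 29.5 cpm in sgCtrl and 17.9, 13.7 and 9.26 cpm in sgN6AMT1 libraries. The conditions overlapped, but the fit called it lower (log2 fold change −1.21 ± 0.36, adjusted p = 0.0417), and 4 of 6 fits with 1 library left out lost the call. It was also lost with DESeq2 (adjusted p = 0.0525) and with both deep libraries thinned (adjusted p = 0.122). The 17 tested members with CCAAT had a median log2 fold change of 0.02, and the 21 without it of 0.03.

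Of the genes that go with the immunoproteasome in antigen presentation, B2M, the light chain of MHC class I, rose 1.76-fold. It had 275, 310 and 332 cpm in sgCtrl and 546, 523 and 552 cpm in sgN6AMT1 libraries, with tight values in both conditions (log2 fold change 0.82 ± 0.14, adjusted p = 0.00193). It was called with any single library left out. The interferon target and regulator IRF1 was below the filter on low counts, with 1, 6 and 3 reads in the controls against 15, 49 and 39 in depleted cells. Scaled for depth, IRF1 had 1.34, 6.92 and 3.54 cpm against 15.8, 8.94 and 10.0 cpm. Without that filter its log2 fold change was 1.38 ± 0.54 (edgeR adjusted p = 0.0956), and DESeq2 gave an adjusted p of 0.208. TAP2, TAPBP and ERAP1 were tested and not called. Also not tested were TAP1 (0 to 30 counts), NLRC5, ERAP2, DDI1, MAFF, MAFG, MAFK and SEM1, a small 19S subunit listed under its older symbol SHFM1. That row holds 0 counts in every library, and whether reads of the gene were assigned to it is not known, so that the 0 is not read as lack of expression. UCHL5 was not analysed here.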

How the data were processed

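Per the labels and the study's methods, K562 RNA from 3 sgCtrl and 3 sgN6AMT1 transductions was made into stranded, rRNA-depleted libraries (the labels list polyA RNA). The submitters' notes and the methods name cutadapt, HISAT2 and GRCh38 (release 84). The counting tool, its use of strand and its treatment of reads with several matches are not given in the sources used here. The authors deposited raw read counts per gene symbol without normalization. The members and gene lists were chosen with earlier results of these data known.

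From the counts, 8324 of 19330 genes passed filterByExpr (edgeR 4.0.16, minimum count 10), were scaled by TMM and tested with the quasi-likelihood test, fitted on all 6 libraries with Benjamini-Hochberg adjustment. A gene was called at an adjusted p under 0.05. Log2 fold changes are sgN6AMT1 against sgCtrl with standard errors. The cpm values are TMM-normalized, except that those of N6AMT1, limits and intervals use raw totals. Log2 ratios used counts plus 0.5, and shares and ratios were compared by exact permutation tests (scipy 1.17.1). The planned ratios PSMB8 to PSMB5 and PSMB9 to PSMB6 were not formed, since PSMB8 and PSMB9 had 0 or 1 count in each sgCtrl library, under the floor of 3 counts, and at most 9 in any library. Transductions are taken as replicates, and p-values measure the spread between these libraries. Genes named are PSMB5 to PSMB10, all called genes, the extremes of each group, NFE2L1 and the genes not tested, while others (PSMG2, PSMA5, TAP2 and similar) were chosen after their values were seen. Some genes of the pathway and marker lists are not reported here. Positions, exon overlaps, lengths and GC content come from GENCODE release 44 (GRCh38), promoters from RefSeq. On simulated counts for the sgN6AMT1 against sgCtrl comparison, 8324 genes were drawn and 8155 tested. Calls were made for 93 of 94 genes with a simulated log2 fold change of 2, for 71 of 96 with 1, and for 7 of 7965 with none. Sizes between 0 and 1, which hold every called member except PSMB10, were not simulated. The spread was drawn alike for both conditions, without an outlying library. Alternatives were DESeq2 1.42.0, RLE size factors, total counts, removal of the 13 mt-DNA genes, other filters, a replicate block, each library left out, thinning of sgN6AMT1 replicates 2 and 3 to 858710 counts, and both left out. The GC and length correction (98% of genes tested had values) was added after seeing the data.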

Additional observations from a re-analysis of the deposited data

How the results depend on the processing

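Of the members, 7 were called under RLE size factors, total counts and removal of mt-DNA genes, 6 with DESeq2, with at least 10 counts in every library, with thinned deep libraries and with the GC and length correction, and 10 without a filter on low counts, where the median of all genes shifted to 0.12. DESeq2 lost PSMB10, the minimum of 10 counts lost PSMD11, thinning lost PSMC5 and PSMD11 and gained PSMB3, and the GC and length correction lost PSMB10 and PSMC4 and gained PSMA5. With 1 library left out, calls ran from 220 to 951 genes, from 1 to 9 members and from 1 to 7 pathway genes (220 genes, 1 member and 2 pathway genes without sgCtrl replicate 2; 301, 1 and 1 without sgCtrl replicate 1). Without both deep libraries there were 122 genes, 0 members and 1 pathway gene, and the lone sgN6AMT1 library is then assumed to vary like the controls. The pathway genes called were 2 with thinned libraries and 7 with the GC and length correction. Correlations of same-numbered libraries across the conditions were −0.00052, 0.083 and 0.19, and those of differently numbered ones lay between −0.19 and 0.14. These values do not settle whether replicate numbers pair the libraries. A replicate block gave 12 members and 8 pathway genes, and with the GC and length correction 14 members, 10 pathway genes and 1344 genes in all. Pairing same-numbered libraries gave an exact permutation p of 0.25 for the ratios and shares at 0.1 or 0.2, the smallest that 3 pairs allow.

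With 1 library left out, median log2 fold changes ran from −0.12 to 0.0032 for 19S subunits, 0.14 to 0.36 for 20S beta subunits, 0.10 to 0.30 for activators and 0.057 to 0.49 for assembly factors. The log2 fold changes of genes that turned sign ran from −0.50 to 0.0059 for PSMA3, −0.031 to 0.055 for PSMB6, −0.041 to 0.16 for PSMB7 and −0.013 to 0.21 for NFE2L1, and the difference in log2 ratio of PSME1 to PSME2 from −0.40 to 0.042. PSMB6 was at −0.012 with DESeq2 and with total counts (−0.0098), −0.0035 with RLE, −0.080 with thinning, −0.10 without both deep libraries, and −0.20 with the GC and length correction, alone and with the replicate block. PSMB7 was at −0.057 and −0.069 in those last fits, where 20S beta subunits had medians of 0.066 and 0.068 and non-ATPase subunits of −0.17. The activator median was 0.34 with thinning and 0.073 without both deep libraries, where the ATPase median was −0.16. The cause of these shifts was not tested. Depth limited PSMB8, PSMB9 and IRF1. None of the called genes changed direction in these fits.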
